A study of Mus musculus with 39 samples.

Results

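The transcripts of 7 pancreatic islet hormones were followed through RNA sequencing libraries of mouse liver and muscle. The genes were Ins1, Ins2, Iapp, Gcg, Sst, Ppy and Pyy, found by symbol among the 46517 genes of each count table. Hormone ratios were compared in the 14 of 39 libraries that held an estimated Iapp count of 10 or more, a minimum chosen on the measured counts themselves. Which libraries passed is therefore a description and carries no test.

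Livers and triceps surae, the calf muscle group, came from female mice aged 25 weeks after a fast of 4 h. Every mouse was Ins1-/-, on a mixed background of C57BL/6 and 129, and was either Ins2+/+ or Ins2+/-. Diet A supplied 4.68 kcal per g with 25% of calories from fat, and diet B 5.56 kcal per g with 58% from fat. Each combination of tissue, genotype and diet had 5 libraries, except Ins2+/+ livers on diet B, which had 4, so there were 19 liver and 20 muscle libraries. The genotypes were littermates per the series' design text, but the labels do not say whether a liver and a muscle with the same replicate number came from 1 mouse. Libraries are named here by tissue, genotype, diet and replicate number, as in liver Ins2+/- B 1.

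Pancreatic islets are clusters of endocrine cells set in the exocrine pancreas. Beta cells release insulin, which in mice is encoded by Ins1 and Ins2, together with islet amyloid polypeptide (amylin), encoded by Iapp. Alpha cells make glucagon (Gcg), delta cells somatostatin (Sst) and PP cells pancreatic polypeptide (Ppy), while Pyy encodes peptide YY, which is made in the gut and also in the islet. Hepatocytes and muscle fibres respond to insulin but are not known as a source of these hormones.

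In the GENCODE release M21 annotation of the mouse build GRCm38, Ins1 lies on chromosome 19 (52264297 to 52265476, plus strand) and Ins2 on chromosome 7 (142678656 to 142743381, minus strand). Iapp lies on chromosome 6 (142298423 to 142303961, plus strand) and Gcg on chromosome 2 (62474530 to 62483650, minus strand). Sst is on chromosome 16 (23889573 to 23890958, minus strand). Ppy (102099930 to 102101319) and Pyy (102106676 to 102107832) are neighbours on the minus strand of chromosome 11.

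Ins1 and Ins2 are close copies, so the count of Ins1, the deleted gene, depends on how far their sequences differ. Their coding sequences of 324 and 330 bases, stop codon left out, were identical at 300 of 324 aligned positions (92.6%). The longest identical run was 54 bases, so a read can fit both genes. Of the 31-base words, the word length used here for the comparison, 47 of 1032 in Ins1 transcripts (4.55%) and 47 of 1438 in Ins2 transcripts (3.27%) also occurred in the other gene. The other 5 hormone genes shared no such word with any of the 7. The stretch of 90 alignment columns in which the copies are most alike is shown first, coding bases 100 to 189 of each gene, with the 2 differing bases in capitals. Below it is the stretch in which they differ most, coding bases 187 to 270 of Ins1 and 187 to 276 of Ins2, with 15 differing columns in capitals, gaps included. Sequences are from the GENCODE transcripts, 5′ to 3′ on the coding strand.
Ins1, most alike: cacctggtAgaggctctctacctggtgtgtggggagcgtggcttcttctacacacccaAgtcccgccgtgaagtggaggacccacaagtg
Ins2, most alike: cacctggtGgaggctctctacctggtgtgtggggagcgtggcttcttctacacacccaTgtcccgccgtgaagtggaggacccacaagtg
Ins1, most different: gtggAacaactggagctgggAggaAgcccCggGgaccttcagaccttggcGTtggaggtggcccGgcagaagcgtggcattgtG
Ins2, most different: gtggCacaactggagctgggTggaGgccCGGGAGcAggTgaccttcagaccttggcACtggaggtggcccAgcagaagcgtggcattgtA

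Libraries held 1289225 to 54249818 estimated counts in liver (median 4847998) and 1060469 to 13709576 in muscle (median 4080492). Where a gene had 0 counts, as many as 3 remain possible, equal to 0.0553 to 2.33 CPM (a library's counts scaled to 1000000) in liver and 0.219 to 2.83 CPM in muscle. These floors, and the intervals given for counts, cover counting error only. Hepatocyte markers (8 of 8 detected) summed to at least 103786 CPM in every liver, and skeletal muscle markers (8 of 8) to at least 60841 CPM in every muscle, as the tissue labels say. Livers Ins2+/- B 2 and B 3, the deepest libraries, were the most alike of 36 liver pairs within groups outside the hormones. Their median absolute log2 difference was 0.039 over 2550 genes, against 0.121 or more in the others. The labels list them as separate samples, and whether both come from 1 mouse was not tested. Muscles Ins2+/- B 2 and B 4 stood apart in the other direction. The 7 pairs that hold either of them differed by 0.507 to 0.761, against 0.374 or less in the other 33 muscle pairs within groups. Results that include them were therefore also computed with both left out, an alternative added after the data were seen.

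Ins1 was checked first, because every mouse was labelled as lacking it. All 19 livers and 18 of 20 muscles held 0 Ins1 counts. Muscle Ins2+/- A 2 held 3 Ins1 counts (0.243 CPM) beside 50648 Ins2 counts, and muscle Ins2+/- B 5 held 11 (1.30 CPM) beside 9 Ins2 counts. In the 14 libraries with the Iapp minimum, Ins1 made up 3 of the Ins1 and Ins2 counts against 124815 for Ins2, a share of 0.0024% (exact binomial 95% interval 0.000496 to 0.00702). In muscle Ins2+/- B 5 the share was 55% (exact binomial interval 31.5 to 76.9), and no Iapp count was read there. The Ins1 counts of that muscle therefore did not come with the other beta cell hormone, whereas those of muscle Ins2+/- A 2 did. Which part of Ins1 the deleted allele lacks is not given in the sources used here.

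At any count, Ins2 was read in all 39 libraries, Gcg in 31, Iapp in 30, Sst in 20, Ppy in 19 and Pyy in 15. Several livers, such as Ins2+/+ A 2, held only 1 Ins2 count. The libraries fell on both sides of a gap. Iapp stood at 5.78 CPM or more in the 14 libraries with a count of at least 10, and at 1.89 CPM or less in the other 25. The nearest to the minimum were liver Ins2+/+ A 1 just inside, with 28 Iapp counts, and liver Ins2+/- B 2 just outside, with 8 counts in the deepest library of all. Muscles Ins2+/+ A 4, Ins2+/+ A 5 and Ins2+/- B 1 followed with 5 counts each.

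The 14 libraries came from every group. They were 6 of 19 livers and 8 of 20 muscles, or 6 of 19 Ins2+/+ and 8 of 20 Ins2+/- libraries. Of the 19 liver and muscle pairs that share a group and number, both members held the minimum in 3, the liver alone in 3, the muscle alone in 5 and neither in 8.

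**Figure D1:**
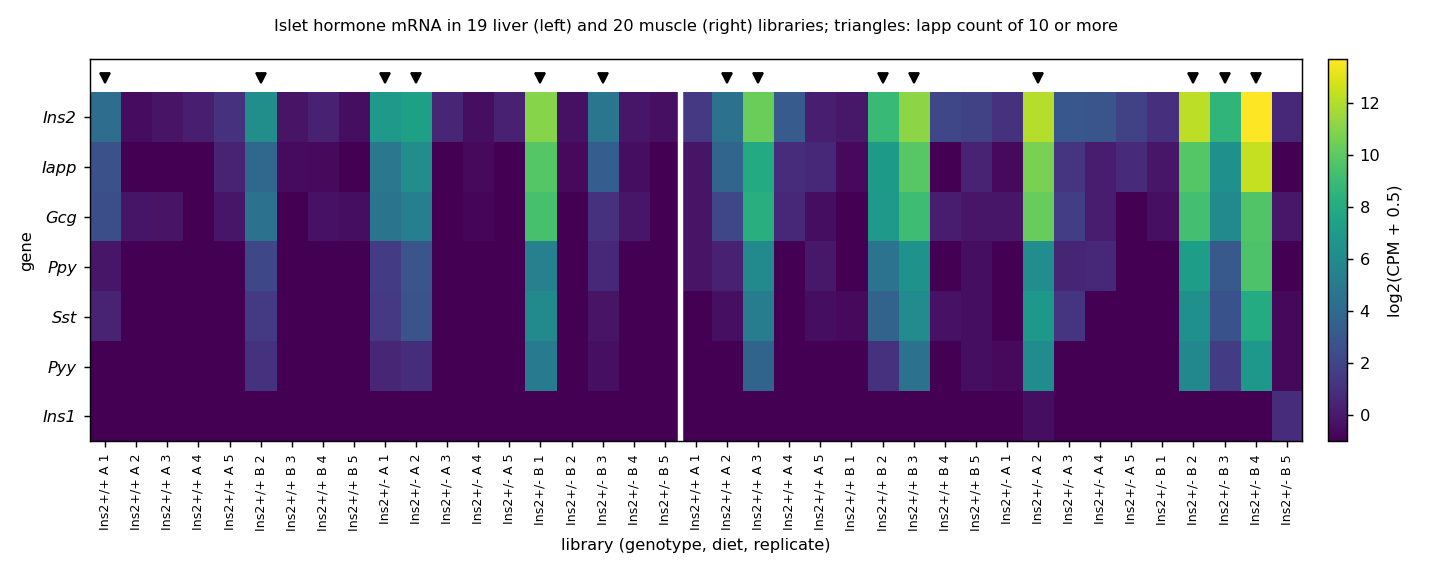
Level of the 7 hormone genes as log2(CPM + 0.5), in colour, in each of 19 liver and 20 muscle libraries, named by genotype, diet and replicate. Triangles mark the 14 libraries with an Iapp count of 10 or more. In these columns Ins2, Iapp and Gcg are all raised, while Ins1 stays at 0 in all libraries but 2.

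Per kb of transcript, Ins2 stood highest of the hormones in every one of the 14 libraries, and Iapp stood next in all but liver Ins2+/+ B 2, where Gcg exceeded it. Among Ins2+/+ livers, A 1 held 91 Ins2 and 28 Iapp counts. Liver Ins2+/+ B 2 held 360 Ins2 and 70 Iapp counts. These were the only Ins2+/+ livers with the minimum, and both lay far below the highest Ins2+/- liver. Liver Ins2+/- A 1 held 606 Ins2 and 138 Iapp counts. Its neighbour Ins2+/- A 2 held 781 and 370. Liver Ins2+/- B 1 held 21268 and 9271, more than all other livers together. Liver Ins2+/- B 3 held 1281 Ins2 and 485 Iapp counts in a library of 48823121, so that its Ins2 level of 26.2 CPM was well below the 2074 CPM of B 1.

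Muscles reached higher levels. Among Ins2+/+ muscles, A 2 held 87 Ins2 and 52 Iapp counts. In Ins2+/+ A 3 there were 4593 Ins2 and 874 Iapp counts. Muscle Ins2+/+ B 2 had 1193 and 314. The range among the Ins2+/+ muscles closed with B 3, at 9341 Ins2 and 3973 Iapp counts, so these 4 spanned a wide range. Muscle Ins2+/- A 2 held the most of all, 50648 Ins2 and 20375 Iapp counts. In Ins2+/- B 2 there were 14293 and 2693. Muscle Ins2+/- B 3 had 5335 and 1129. Muscle Ins2+/- B 4 held 14938 Ins2 and 6118 Iapp counts in only 1154071, which gave the highest Ins2 level in the series, 12944 CPM, in 1 of the 2 muscles that stood apart from their group outside the hormones.

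Below the minimum, Ins2 was read at low counts, and whether these reads arose in the libraries that hold them was not tested. In 13 livers it ran from 0.199 to 1.66 CPM (median 0.358), and in 12 muscles from 0.465 to 8.89 CPM (median 2.69). Summed over these 25 libraries, there were 201 Ins2 and 46 Iapp counts, a ratio of 4.37 (exact binomial 95% interval 3.16 to 6.16). The ratio was 2.80 in the livers (1.52 to 5.44) and 5.13 in the muscles (3.47 to 7.80). It was 4.48 in Ins2+/+ (2.77 to 7.57) and 4.28 in Ins2+/- libraries (2.75 to 6.91). The interval of each genotype contained the ratio of the other. These intervals come from counts summed over libraries of both tissues and leave out the spread between libraries, so they cannot decide about genotype.

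**Figure D2:**
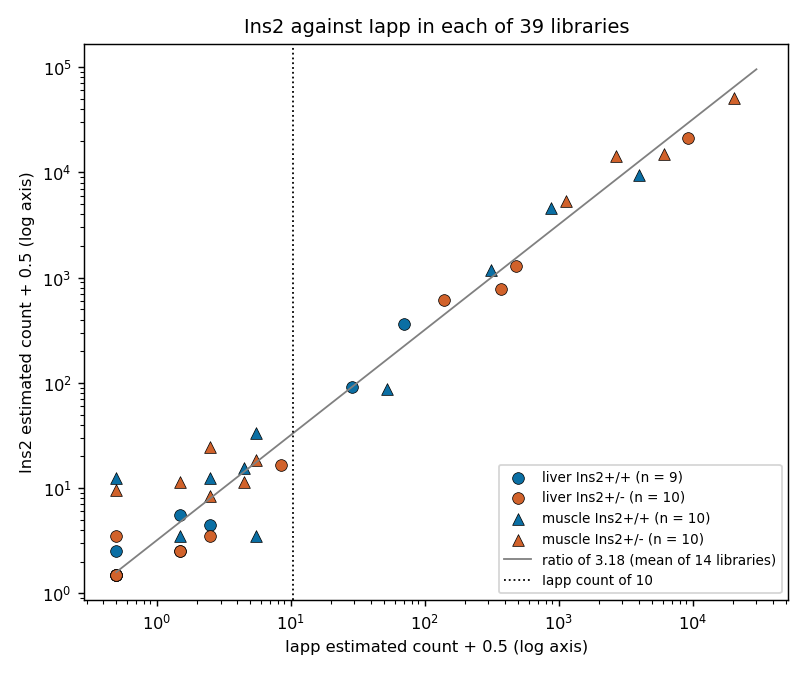
Estimated Ins2 count against estimated Iapp count (each plus 0.5, log axes) in 39 libraries, by tissue (shape) and genotype (colour). The grey line is the geometric mean ratio of the 14 libraries right of the dotted minimum, 3.18; both genotypes lie on both sides of it.

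The ratio of Ins2 to Iapp asks whether Ins2 was lower, relative to another beta cell transcript of the same library, in libraries labelled Ins2+/-. The comparison takes the label of a library as the genotype of its hormone RNA, which was not tested. Libraries are also taken as independent, though the labels do not say which of them share a mouse. Depth and scaling cancel in such a ratio. In Ins2+/+ libraries it was 3.21 and 5.11 in livers A 1 and B 2. It was 1.67, 5.25, 3.80 and 2.35 in muscles A 2, A 3, B 2 and B 3. In Ins2+/- libraries it was 4.38, 2.11, 2.29 and 2.64 in livers A 1, A 2, B 1 and B 3. In Ins2+/- muscles A 2, B 2, B 3 and B 4 it was 2.49, 5.31, 4.72 and 2.44. The lowest ratio of all belonged to an Ins2+/+ muscle and the highest to an Ins2+/- muscle, and the genotypes overlapped almost entirely.

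On the log2 scale the mean ratio was 1.63 ± 0.53 in Ins2+/- (SD, n = 8) and 1.72 ± 0.65 in Ins2+/+ libraries (n = 6). The difference within tissues was −0.11, or 0.929-fold, with a 95% interval from inverting the exact permutation test of −0.84 to 0.64 (0.560 to 1.56-fold). This was smaller than the spread between libraries (two-sided exact permutation test within tissues over 1050 arrangements, p = 0.747, adjusted 0.747 over 10 ratio tests; 5 of 8 Ins2+/- libraries lay below the Ins2+/+ mean). A halved ratio, −1 on this scale, lay outside that interval. It lay inside it in 5 of 25 alternatives, among them those without liver Ins2+/+ A 1 (lower limit −1.02) and without muscles Ins2+/- B 2 and B 4 (−1.01). The alternatives were not all distinct. An Iapp minimum of 20 kept the same libraries as the main test, and a minimum of 50 left out only liver Ins2+/+ A 1. A minimum of 100 kept no Ins2+/+ liver, so it compared muscles only, 4 Ins2+/- and 3 Ins2+/+. No interval was computed for liver alone.

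The spread between libraries exceeded counting error. The ratios of the 14 libraries had an SD of 0.56 on the log2 scale, while the SD that counting alone would give averaged 0.13. In the 11 libraries with 100 or more Iapp counts the SD was 0.53, against 0.07 from counting. The ratio thus differed between libraries of 1 genotype with high Ins2 and Iapp counts, as in Ins2+/- muscles B 2 and B 4. Both of these muscles stood apart from their group outside the hormones. In Ins2+/+ muscles A 3 and B 3 the ratio was 5.25 and 2.35.

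Within liver the genotype difference was −0.57 (two-sided exact permutation p = 0.267), where 4 against 2 libraries cannot give a p below 0.0667. Within muscle it was 0.24 (two-sided exact permutation p = 0.6, 4 libraries each). The difference between the tissues in the genotype effect, 0.81, was not larger than the spread (exact permutation p = 0.211). Nor was the difference between diets, −0.03 (exact permutation p = 0.957).

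**Figure D3:**
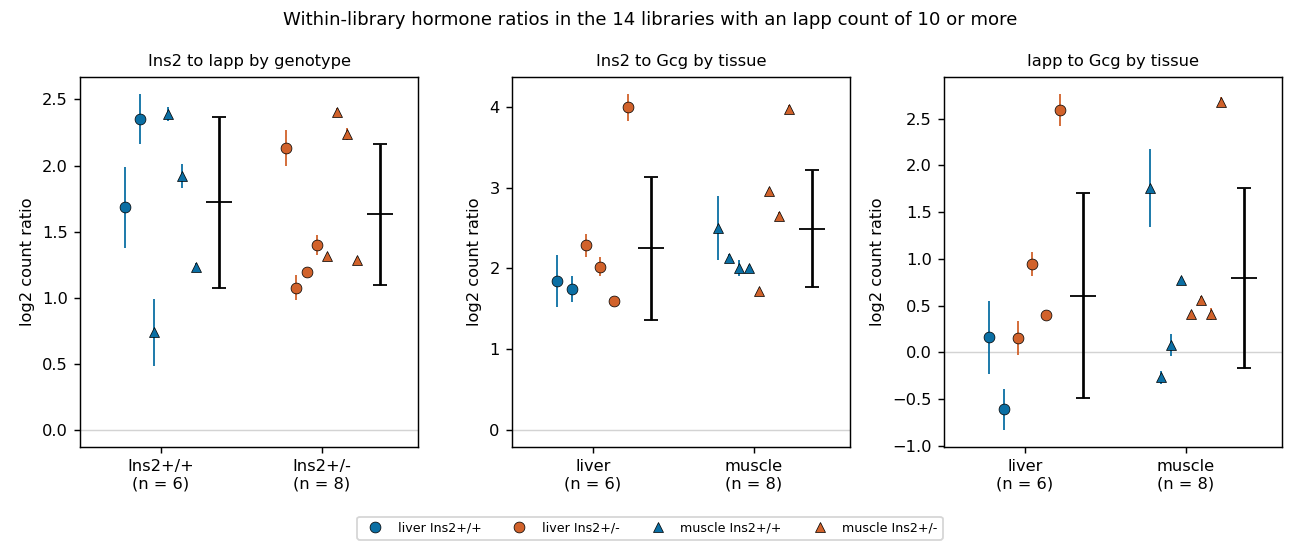
Within-library log2 count ratios in 14 libraries. Coloured points are libraries with their counting SD as bars (circles liver, triangles muscle, blue Ins2+/+, orange Ins2+/-), and black bars are group mean ± SD. The groups overlap in each panel, with liver Ins2+/- B 3 and muscle Ins2+/- B 4 at the top of both Gcg ratios.

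Beta to alpha cell hormone ratios were compared between tissues. The ratio of Ins2 to Gcg, the glucagon transcript, was 3.03 to 15.9 in 6 livers (median 3.82) and 3.30 to 15.7 in 8 muscles (median 4.96). On the log2 scale the means were 2.25 ± 0.89 (n = 6) and 2.49 ± 0.72 (n = 8). Muscle exceeded liver by 0.24 (95% interval −0.69 to 1.13), less than the spread between libraries (two-sided exact permutation p = 0.573 over 3003 arrangements, adjusted 0.747), and the difference was −0.082 without muscles Ins2+/- B 2 and B 4. The ratio of Iapp to Gcg, which leaves out the gene whose dose differed, was 0.656 to 6.03 in livers (median 1.22) and 0.830 to 6.42 in muscles (median 1.40). Its difference was 0.19 (−1.01 to 1.37; two-sided exact permutation p = 0.728, adjusted 0.747), and its sign turned without liver Ins2+/+ B 2 or without muscle Ins2+/- B 4. In folds the intervals run from 0.621 to 2.19 and from 0.497 to 2.59, so smaller differences between tissues were not detectable with these libraries.

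A single library of each tissue stood apart in this ratio. Liver Ins2+/- B 3 had 485 Iapp and 80 Gcg counts, a ratio of 6.03, and muscle Ins2+/- B 4 had 6118 and 952, a ratio of 6.42. The next highest was muscle Ins2+/+ A 2 at 3.39, from 52 and 15 counts, and the remaining 11 lay between 0.656 and 1.92. Both were Ins2+/- on diet B, but the other 3 Ins2+/- diet B libraries lay between 1.32 and 1.47.

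**Figure D4:**
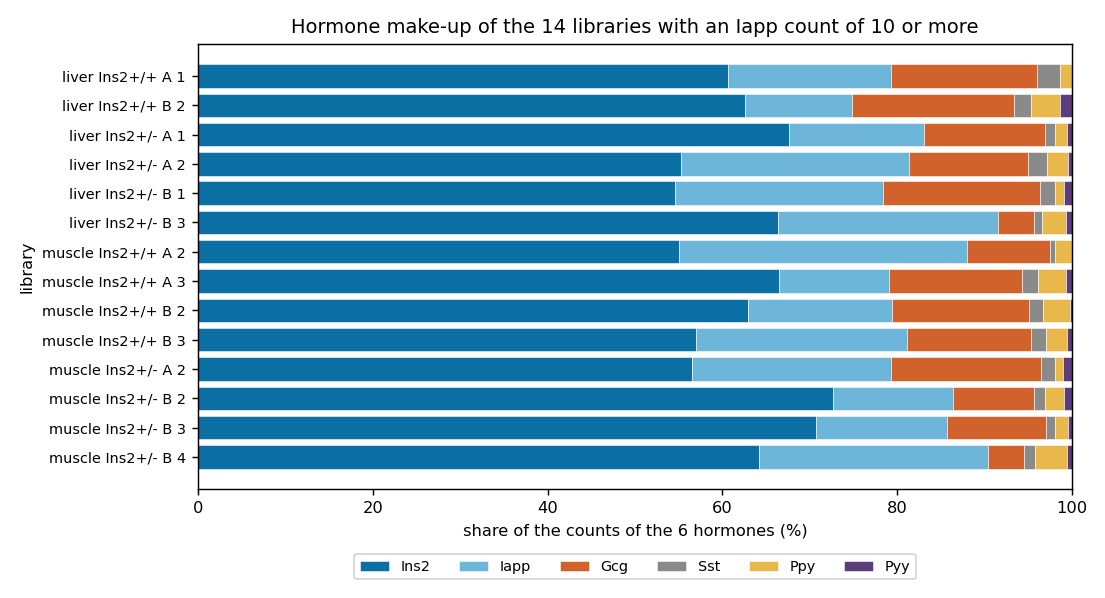
Share of the counts of Ins2, Iapp, Gcg, Sst, Ppy and Pyy (%) in each of the 14 libraries. Ins2 takes 54.6% to 72.7%, and the Gcg segment is shortest in liver Ins2+/- B 3 and muscle Ins2+/- B 4, at 4.15% and 4.09%.

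The minor hormones kept to small shares. Of the counts of the 6 hormones, Ins2 took a median of 62.7% (54.6% to 72.7%), Iapp 20.7% (12.2% to 32.9%) and Gcg 14.02% (4.09% to 18.6%). Ppy took 2.25% (0.987% to 3.69%), Sst 1.58% (0.633% to 2.67%) and Pyy 0.568% (0% to 1.39%). Somatostatin transcripts ran from 1 count in muscle Ins2+/+ A 2 to 1406 in muscle Ins2+/- A 2. Pancreatic polypeptide transcripts ran from 2 counts in liver Ins2+/+ A 1 to 884 in muscle Ins2+/- A 2. Peptide YY transcripts were absent from liver Ins2+/+ A 1 and muscle Ins2+/+ A 2, the shallowest in hormone counts, and reached 874 in muscle Ins2+/- A 2.

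The PP cell hormone varied most against the alpha cell hormone. The ratio of Ppy to Gcg was 0.0576 in muscle Ins2+/- A 2 and 0.0597 in liver Ins2+/- B 1, with 884 and 418 Ppy counts. It was 0.677 in liver Ins2+/- B 3 and 0.903 in muscle Ins2+/- B 4, with 54 and 860 Ppy counts. The other 10 libraries lay between 0.0980 and 0.233. The SD over the 14 was 1.12 on the log2 scale, against 0.40 from counting.

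Levels of different genes were set side by side per length, as CPM per kb of the median annotated transcript (478 bases for Ins2, 566.5 for Iapp, 767 for Gcg). In the 14 libraries the median level was 909.8 CPM per kb for Ins2, 184 for Iapp, 118 for Gcg, 32.1 for Ppy, 12.8 for Sst and 3.80 for Pyy. This order held in 8 libraries. Sst stood above Ppy in 3, Ppy above Gcg in 2 (liver Ins2+/- B 3 and muscle Ins2+/- B 4) and Gcg above Iapp in 1 (liver Ins2+/+ B 2). Some of these orders rest on few counts, such as 4 Sst and 2 Ppy counts in liver Ins2+/+ A 1. Muscle Ins2+/+ A 2 held 1 and 3. Gcg above Iapp rested on 107 and 70 counts. Neighbours from Iapp down overlapped widely, with Iapp at 10.2 to 9358 and Gcg at 2.14 to 1621 CPM per kb.

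None of the other ratios to Iapp differed beyond the spread between libraries. Between genotypes the log2 differences, Ins2+/- minus Ins2+/+ within tissues, were −0.78 for Gcg, −0.61 for Sst, −0.66 for Ppy and 0.21 for Pyy, with exact permutation p of 0.18, 0.15, 0.159 and 0.709 (adjusted 0.6, 0.6, 0.6 and 0.747). Leaving out any 1 library moved the Gcg difference between −1.02 and −0.51. Between tissues, muscle minus liver, they were −0.31 for Sst, 0.20 for Ppy and −0.34 for Pyy (exact permutation p = 0.452, 0.669 and 0.532, each adjusted 0.747).

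Levels of the hormones were then compared between groups by edgeR's quasi-likelihood test on all genes. In bulk libraries the number of hormone-making cells and the hormone RNA in each cell cannot be told apart. In liver 5 of 7 hormones passed the filter on low counts, each of them through the few high libraries, and none was called between genotypes, where 0.00849% of 11777 genes were called. The estimate for Ins2 was 3.96 ± 1.45 (SE, log2 Ins2+/- against Ins2+/+; adjusted p = 0.412) and that for Iapp 4.69 ± 1.52 (adjusted p = 0.366). Gcg, Sst and Ppy stood at 3.86, 3.74 and 3.55. Without liver Ins2+/- B 1, the estimates of Ins2 and Gcg took the lowest values of any omission, 1.21 and 0.06. Between diets none was called either (0.238% of genes called), with Ins2 at 2.35 ± 1.39 (adjusted p = 0.525), and its sign turned without liver Ins2+/- B 1 or without liver Ins2+/+ B 2.

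In muscle 6 of 7 hormones passed the filter and none was called. Between genotypes 0% of 11959 genes were called, with 387 genes at an unadjusted p under 0.05 and 3 calls by DESeq2, none of them a hormone. Ins2 stood at 2.16 ± 1.55 and Iapp at 2.54 ± 1.56 (adjusted p = 0.999 each), and all 6 estimates turned negative without muscle Ins2+/- A 2. Between diets 0.00836% of genes were called, and Ins2 stood at 1.73 ± 1.53 (adjusted p = 0.999). Without muscles Ins2+/- B 2 and B 4 all 6 estimates turned negative in both comparisons, with Ins2 at −0.27 between genotypes and −0.68 between diets.

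Between tissues the same test called all 6 tested hormones higher in muscle, where 77.8% of 13714 genes were called and 39.8% of the 13714 were called higher in muscle. Liver and muscle differ in most genes, so a call is no special feature of the hormones. Pyy had not passed the filter among livers alone and entered this test through muscle, where it is high, so its call carries no weight of its own. Ins2 was higher by 4.39 ± 1.29 (log2, adjusted p = 0.00252) and Iapp by 4.39 ± 1.27 (adjusted p = 0.00205). Gcg, Sst, Ppy and Pyy were higher by 3.82, 3.95, 4.66 and 4.48 (adjusted p from 0.000495 to 0.00424). The calls rested on few libraries. Without muscle Ins2+/- A 2 only Ins2 was called (1 of 6), without muscle Ins2+/+ A 3 only Ins2 and Iapp (2 of 6), and without muscle Ins2+/+ B 3 Pyy was lost. In a permutation test of log2(CPM + 0.5) over 20 muscles and 19 livers (100000 resamples, two-sided), added after the data were seen, Ins2 differed by 2.91 (p = 0.0359, adjusted 0.0967 over 6 hormones), and no hormone passed.

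Below the minimum the Ins2 levels of the tissues are given as a description, since these 25 libraries were chosen on Iapp and the Ins2 counts of the livers were too low for the filter. The 12 muscles lay at a median of 2.69 CPM and the 13 livers at 0.358 CPM, and the ranges overlapped between 0.465 and 1.66 CPM.

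Genes that process and store peptide hormones were compared in the same tests. Of 17 such genes, 6 were tested between genotypes in liver and 15 in muscle, and none was called. Their median log2 estimates there were 4.2 and 2.59, against 0.00 over all tested genes in each tissue. In liver Scg2, Chga and Chgb had medians of 0, 0.318 and 0 CPM and highest values of 298, 918 and 194 CPM. Such genes passed the filter through the few high libraries, so the log2 estimates are a description and not evidence about the list. Between tissues 16 of 17 were called higher in muscle and none lower, where 39.8% of all genes tested were called higher, with a median of 4.09 against 0.04 over all genes. Of the 17, 6 had passed the filter among livers alone, so the others entered this test through muscle, where they are high, and the count is not evidence about the list. Pcsk1 and Pcsk2, which encode the prohormone convertases and of which Pcsk2 alone had passed among livers, were higher by 4.22 ± 1.18 (edgeR adjusted p = 0.00148) and 3.69 ± 1.08 (adjusted p = 0.0023). Cpe, the carboxypeptidase that trims the cleaved peptides, was higher by 6.71 ± 0.61 (adjusted p = 1.28e-12), but its median was 286.7 CPM over all 20 muscles, so muscle carried it with or without hormones.

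Other pancreatic transcripts moved with the hormones. The 8 genes most like Ins2, by the lower of the Pearson correlations of log2(CPM + 0.5) over 19 livers and over 20 muscles among 11991 genes, were Scg2, Chga, Ctrb1, Try5, Chgb, Reg1, G6pc2 and Cela3b. Scg2, Chga and Chgb encode granins, proteins of hormone granules, and G6pc2 the glucose-6-phosphatase of islet cells. Ctrb1 encodes chymotrypsinogen, Try5 a trypsin and Cela3b an elastase, digestive enzymes of acinar cells, and Reg1 a secreted pancreatic protein. For Scg2 r was 0.974 in liver and 0.966 in muscle, and for Cela3b 0.904 and 0.928. Such correlations share the same hormone-rich libraries at their upper end and are given as a description. Trypsin and elastase genes have near copies, so the division of reads among them is uncertain.

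The exocrine pancreas was represented alongside the islet. The 32 acinar markers summed to 20.0 to 276 CPM in the 6 livers with the minimum and to 6.2 to 34.9 CPM in the other 13, with 31 and 25 of the 32 detected. In muscle the sums were 14.6 to 37973 CPM in 8 libraries and 5.06 to 22.6 CPM in 12, with 31 and 24 detected. Cela3a had no count in any library. Cela1 alone gave 5.35 to 13.2 CPM in the livers below the minimum. The acinar sum relative to Ins2 differed widely, from 0.116 in muscle Ins2+/- A 2 to 2.93 in muscle Ins2+/- B 4 and 3.18 in liver Ins2+/- B 3. The last pair were also the libraries with the highest Ppy to Gcg ratio and the lowest Gcg share, and the part of the acinar transcripts in those values was not tested.

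**Figure D5:**
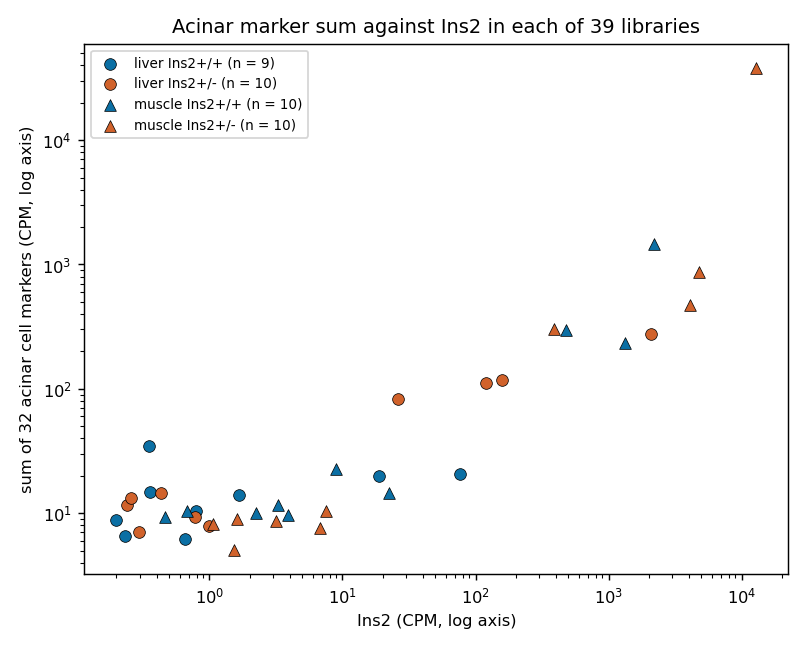
Sum of 32 acinar cell markers against Ins2, both in CPM on log axes, in 39 libraries by tissue (shape) and genotype (colour). Below about 10 CPM of Ins2 the sum stays between 5.06 and 34.9 CPM, and it reaches 37973 CPM in muscle Ins2+/- B 4.

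Islet cell genes other than hormones were present in the same libraries. G6pc2 was detected in all 14, at 0.619 to 69.1 CPM in livers and 0.255 to 275.5 CPM in muscles, and in 2 of the other 25. Ucn3, which encodes the beta cell peptide urocortin 3, was detected in 4 of 6 livers and 8 of 8 muscles with the minimum and in 0 of 25 without it. Pdx1, a transcription factor of beta cells, was detected in 4 of 6 livers and 7 of 8 muscles with the minimum and in 2 of the other 25. All 18 beta cell markers were detected in livers with the minimum and 12 in those without. In muscles the list separated less, with 18 detected with the minimum and 16 without it, where only Neurod1 and Ucn3 were at 0. The 17 genes of hormone granules and processing summed to 33.2 to 2321 CPM in livers with the minimum and to 23.9 to 43.3 CPM in those without. In muscle the sums were 281.7 to 8484 and 287.7 to 368.9 CPM. The beta cell sum itself separates nothing in liver (630.5 to 974.3 against 525.8 to 829.2 CPM), since the list holds genes that hepatocytes express, such as Slc2a2.

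Intestinal markers were examined because peptide YY and glucagon transcripts also occur in endocrine cells of the gut. Of the 16 genes of the list found in the tables, 9 were detected in livers with the minimum and 7 in those without, and 8 and 9 in muscles. The markers Cdx1, Cdx2, Gip and Alpi were at 0 in all 39 libraries. Vil1, which encodes villin of the brush border, was detected in 7 of 8 muscles with the minimum (up to 38.1 CPM) and in 2 of 12 without it (up to 0.539 CPM). Reg3g, which encodes a secreted lectin, was detected in 5 of 8 (up to 22.5 CPM) and 1 of 12 (0.758 CPM). Other members of the list went the other way. Muc2, Sis and Nts were at 0 in muscles with the minimum but were detected among those without it. Cck and Sct were at 0 in muscles without the minimum and were detected among those with it. The part of such transcripts in the Gcg and Pyy values was not tested. The sum of the 16 genes was 70.5 to 82.8 CPM in livers with the minimum and 39.7 to 90.8 CPM in the others. In muscle it was 3.57 to 65.0 and 0.539 to 14.6 CPM, with the highest value in muscle Ins2+/- B 4. Lists for alpha and delta cells hold genes that liver expresses strongly, such as Ttr and Rbp4, and their sums were 8987 to 12931 and 1522 to 2345 CPM over the 19 livers.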

How the data were processed

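RNA from livers and calf muscles was sequenced on an Illumina instrument, per the labels' protocols, with a kit that does not mark strand. The deposited values are estimated counts per gene, not normalized. Per the submitters' processing notes, kallisto 0.42.3, the build GRCm38 and DESeq2 were used. The members and gene lists were chosen with earlier results of these data known.

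Symbols came from GENCODE release M21 (98.9% of 46517 identifiers matched, and those without a symbol held 0.264% of counts). Of all values, zeros included, 15.6% were not whole. Estimated counts were rounded for edgeR 4.0.16 in R 4.3.3 (TMM, filterByExpr by group, glmQLFit, glmQLFTest), with all 4 groups of a tissue, or all 8, sharing 1 spread. Calls were made at a Benjamini-Hochberg adjusted p below 0.05, computed over every gene tested. The biological coefficient of variation was 19.1% in liver, 51.8% in muscle and 41.2% together. DESeq2 1.42.0 was an alternative. Ratios used a pseudocount of 0.5 and exact permutation tests, adjusted over 10 tests. Both were run on simulated data to check the code. The simulated ratios spread less than the measured ones, so those runs do not give the power of these tests.

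Where nothing says otherwise, p values measure the spread between these libraries. Named genes were the 7 hormones and the 8 genes most like Ins2. Markers of single cell types were named after their values were seen.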

Additional observations from a re-analysis of the deposited data

Results flagged for a closer look

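In groups of 4 to 10 libraries, a library was noted when its gap to the nearest other was large against the group's range (Dixon's 95% value). For values with a normal spread, chance notes about 1 in 20 groups. Several sets here hold libraries without a count, tied at 1 value, where a few counts in another library are enough for a note. That rate is therefore no yardstick for the number of notes. Of 65 sets of values checked, 25 gave a noted library, and the same libraries recur because their hormones rise together. Values below are log2(CPM + 0.5) unless named.

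Liver Ins2+/+ A 1 was noted above its group in Gcg (2.50), Sst (0.41) and Ppy (−0.13). Its Sst and Ppy values rest on 4 and 2 counts (0.825 and 0.413 CPM). The other livers of that group held no such count, but their floors ran from 0.597 to 1.24 CPM. Whether Sst and Ppy were higher in A 1 is therefore not settled. Liver Ins2+/+ B 2 did so in all 6 hormones read, with Ins2 at 6.26 against 0.37 or less, Iapp at 3.94, Gcg at 4.54, Sst at 1.5, Ppy at 2.18 and Pyy at 1.14. Liver Ins2+/- B 1 stood apart in Gcg (9.42), Sst (6.00), Ppy (5.37) and Pyy (5.09).

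Muscle Ins2+/+ A 3 stood above its group in Sst (5.15), Ppy (6.03) and Pyy (3.75). Muscle Ins2+/- A 2 did so in Ins2 (12.00 against 3.01 or less), Iapp (10.69), Gcg (10.28), Sst (6.84), Ppy (6.17) and Pyy (6.16). Its 3 Ins1 counts, and the 11 of muscle Ins2+/- B 5, were noted in groups otherwise at 0. The 3 counts, 0.243 CPM, lay below the floors of the other libraries of that group, 0.438 to 2.83 CPM. The 11 counts, 1.30 CPM, lay below the floor of muscle Ins2+/- B 4, 2.60 CPM. The Iapp to Gcg ratio of muscle Ins2+/- B 4, 2.68 on the log2 scale, lay above the 0.41 to 0.56 of the other 3 Ins2+/- muscles. The cause of these differences was not tested.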

How the results depend on the processing

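None of the 10 ratio tests changed its side of the threshold except Sst to Iapp between genotypes, which had an unadjusted exact permutation p of 0.00952 without muscle Ins2+/+ A 2. Signs near 0 were unstable. The Ins2 to Iapp genotype difference of −0.11 was 0.0014 at an Iapp minimum of 5, 0.24 in muscle alone, 0.21 against the sum of 4 hormones, 0.036 with same-numbered liver and muscle averaged as a replicate block, and −0.28 to 0.059 with 1 library left out. Its lower limit passed −1 at an Iapp minimum of 50 (−1.02) or 100 (−1.26, muscles only) and in muscle alone (−1.10). It also did so without liver Ins2+/+ A 1 and without muscles Ins2+/- B 2 and B 4.

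Ins2 to Gcg between tissues was −0.24 at a minimum of 5, −0.46 in 3 same-numbered pairs (replicate block, smallest p 0.25) and 0.032 to 0.59 with 1 library left out. Iapp to Gcg was −0.27 and −0.36 at minimums of 5 and 100, −0.68 in those pairs and −0.077 to 0.59 with 1 left out. Pyy to Iapp between genotypes was −0.26 at a minimum of 50, −0.15 with a pseudocount of 1, −0.64 in liver, −0.18 on diet B and −0.26 to 0.81 with 1 left out. Between tissues Sst to Iapp was 0.013 and 0.31 at minimums of 5 and 100. Pyy to Iapp was 0.027 and 0.091 there and −0.53 to 0.026 with 1 left out. Ppy to Iapp was −0.61 in the pairs and −0.035 to 0.49 with 1 left out.

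Hormone levels whose sign turned with 1 library left out were, between diets in liver, Ins2 (−0.42 to 3.87), Iapp (−0.73 to 3.73), Gcg (−1.18 to 3.71), Sst (−0.73 to 4.14) and Ppy (−0.63 to 4.18). Between genotypes in muscle they were Ins2 (−1.55 to 4.62), Iapp (−1.84 to 4.39), Gcg (−2.67 to 4.35), Sst (−1.61 to 4.71), Ppy (−1.06 to 4.05) and Pyy (−0.93 to 6.07), and between diets in muscle Gcg (−0.18 to 5.2) and Pyy (−0.66 to 4.87). No hormone was called in these comparisons under any alternative. Between tissues 1 to 6 hormones were called with 1 library left out, and 1 in the 25 libraries below the minimum, where only Ins2 was tested, having passed the filter through muscle, where it is higher. Without muscles Ins2+/- B 2 and B 4, 6 were called between tissues. Between genotypes in muscle Ins2, Iapp, Gcg, Sst, Ppy and Pyy then stood at −0.27, −0.19, −0.36, −0.61, −1.44 and −0.0075, and between diets at −0.68, −0.64, −1.07, −1.002, −0.72 and −1.42. Ins2 to Gcg and Iapp to Gcg between tissues were −0.082 and −0.081.

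Over all genes DESeq2 called 34 between genotypes and 207 between diets in liver, and 3 and 4 in muscle, against 1, 28, 0 and 1. The liver diet count was 42 without a filter or with the replicate block, 18 with livers Ins2+/- B 2 and B 3 summed, and 17 to 110 with 1 left out. The liver genotype count was 3 under a stricter filter and 1 to 8 with 1 left out, and the muscle diet count was 2 without a filter. DESeq2 gave no adjusted p for some hormones in liver.

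Replicate numbers were not taken to pair libraries. Deviations of same-numbered libraries from their group means correlated above 0.1 in 7 of 27 liver pairs, 11 of 30 muscle pairs and 3 of 19 liver and muscle pairs (range −0.311 to 0.262), with medians of 0.033, 0.05 and 0.012. A shared source is not excluded by these values.

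The limits are depth and number. Below the minimum a library held at most 8 Iapp counts, so its own ratio is not usable.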
